A study of Mus musculus with 3 samples.

Results

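The Notch receptors *Notch1*, *Notch2* and *Notch3*, the ligands *Dll1*, *Jag1* and *Jag2*, the modifier *Lfng* and the target genes *Hes1*, *Hey1* and *Heyl* were followed through the cell types of the embryonic mouse kidney. They were chosen by symbol and make up 10 of the 32285 genes in the count matrices. The study made 3 droplet single-cell RNA-seq libraries (10x Genomics, counting 3′ ends of transcripts) from whole kidneys of embryos at E15.5 (days after conception). Enl-WT embryos had the genotype Enl+/+ Wt1GFPCre/+, and Enl-T1 embryos were Enl flox-T1/+ Wt1GFPCre/+, heterozygous for a small in-frame insertion in ENL, a chromatin reader. The Enl-T1 TDI-11055 embryos had the Enl-T1 genotype, and their mothers were given TDI-11055, an inhibitor of the acyl-binding pocket of ENL, by mouth at 100 mg/kg each day from E10.5 to E14.5. Mothers of the other libraries are labelled as untreated. All 3 groups carry the Wt1GFPCre knock-in, which inactivates 1 allele of *Wt1* and is active in nephron and stromal progenitors, while ureteric and endothelial cells lie outside its known expression.

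Notch signalling runs between neighbouring cells. A Delta-like or Jagged ligand on the surface of a cell binds a Notch receptor on the next, the receptor is cut by ADAM10 and then by gamma-secretase, and its freed intracellular domain joins the DNA-binding protein RBPJ to switch on genes of the Hes and Hey families. In the kidney, Notch signalling moves nephron progenitors out of self-renewal and is needed to form proximal tubules and podocytes, and in vessels it sets arterial identity and keeps mural cells.

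Each group was a single library of pooled embryos with no map from cells to embryos, so values compare libraries, no test between groups was possible, and every interval is an exact 95% interval that covers counting error only. Cells were kept if they held 1000 to 6000 genes and no more than 10% mitochondrial UMIs, which left 5233 of Enl-WT, 4144 of Enl-T1 and 2754 of the inhibitor-exposed library, with medians of 5090, 9391 and 16932 unique molecular identifiers (UMIs) per cell. The libraries shared 5 to 8 kept barcodes pairwise. The Enl-T1 TDI-11055 library stood apart in that 797 of its kept cells (28.9%) had a mitochondrial share under 1.5%, against 60 (1.15%) and 134 (3.23%) in Enl-WT and Enl-T1. Values without those cells are also given for renal vesicle-like cells and for some counts of calls. Such cells were 46.2% of proximal tubule-like, 42.9% of distal tubule/loop of Henle-like and 35.9% of nephron progenitor-like cells of that library. Ratios in those classes are given only with them included. Embryos also differed in sex between the libraries: the share of cells holding a Y-linked UMI but none of *Xist* was 46.5%, 16.5% and 35.4% in the same order.

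Cells were clustered without any Notch gene, so that the classes were not made by the genes measured in them, and 15 classes had at least 30 cells in a library. They carry the suffix "-like" because they were named from marker lists. All 12 markers of the committed progenitor/renal vesicle-like class (early nephrons that form from progenitors, called renal vesicle-like in what follows) were detected in each library and summed to 4093, 4017 and 3588 counts per 1000000 UMIs of the class (CPM) (here and below, 3 values in a row follow the order Enl-WT, Enl-T1, Enl-T1 TDI-11055). The proximal tubule-like class was less alike between libraries, with marker sums of 6813, 566 and 1015 CPM and with *Cubn* and *Slc22a6* at 0 in Enl-T1 and *Slc5a2* at 0 in Enl-T1 TDI-11055. The podocyte-like class had marker sums of 44030, 1236 and 12818 CPM, with *Podxl* at 0 in Enl-T1. In the nephron progenitor-like class they summed to 1348, 548 and 1083 CPM. Class borders depended in part on rounding, since when the clustering was repeated with another rounding in its linear algebra, 668 of 12131 cells (5.51%) took another class. Fewer mature cells and less marker RNA per cell cannot be told apart in these sums, and their part in the values of Notch genes was not tested.

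*Notch1* (ENSMUSG00000026923, chromosome 2, 26457903 to 26516663 on GRCm38), a receptor used in nephron and endothelium, was highest in vessels. It reached 555 CPM (490 to 626) in the 47 arterial endothelial-like cells of Enl-WT, and 251, 144 and 100.3 CPM in the endothelial-like class of the 3 libraries. That class is not all of the remaining endothelium. It joined clusters led by *Ube2c* and *Hmmr* (100, 48 and 27 cells), by *Rrm2* and *Ccne2* (71, 32 and 28) and by *Ccl21a* and *Prox1* (15, 22 and 2). The endothelial cluster led by *Prnd* and *Esm1* was left unnamed and is given at the end. In the nephron it was at 30.8, 10.1 and 10.7 CPM in progenitor-like cells and at 212, 122 and 71.5 CPM in renal vesicle-like cells, the highest nephron class in Enl-WT. Below the arterial endothelial-like class the order of the classes was not firm, since the ranges of neighbours over the libraries overlapped, and the nephron progenitor-like class was lowest by its mean.

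*Notch2* (ENSMUSG00000027878, chromosome 3, 98013527 to 98150361), the receptor that proximal nephron segments depend on, was found in all classes of the nephron, stroma and ureteric epithelium. Podocyte-like cells had 50.7, 97.5 and 67.5 CPM, renal vesicle-like cells 61.9, 79.6 and 32.9 CPM, and nephron progenitor-like cells 38.9, 35.1 and 26.7 CPM. The exception was the endothelium. Endothelial-like cells held 4, 6 and 1 UMIs (2.74, 4.47 and 1.07 CPM), and arterial endothelial-like cells of Enl-WT held 3 (6.28 CPM). *Notch1* and *Notch2* were thus apart in vessels and together in the nephron.

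*Notch3* (ENSMUSG00000038146, chromosome 17, 32120820 to 32166852), the receptor of vascular smooth muscle and pericytes, was highest in renin/mesangial/mural-like cells, at 180 CPM (154 to 210) in Enl-WT and 125 CPM (101 to 153) in Enl-T1. The next class, ureteric trunk/collecting duct-like, had 62.4, 33.8 and 31.3 CPM and did not overlap with it. The trunk had been taken as a class expected to lack *Notch3*, but after thinning to 2000 UMIs a cell 11.2% (8.03 to 15.0) of the trunk cells of Enl-WT had a *Notch3* UMI (35.2% unthinned), against 30.3% (23.7 to 37.7) of mural-like cells (48.6% unthinned), at median depths of 6261 and 4563 UMIs. Endothelial-like cells had 2, 0 and 1 UMIs, or at most 1.37 CPM, well under the trunk.

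**Figure D1:**
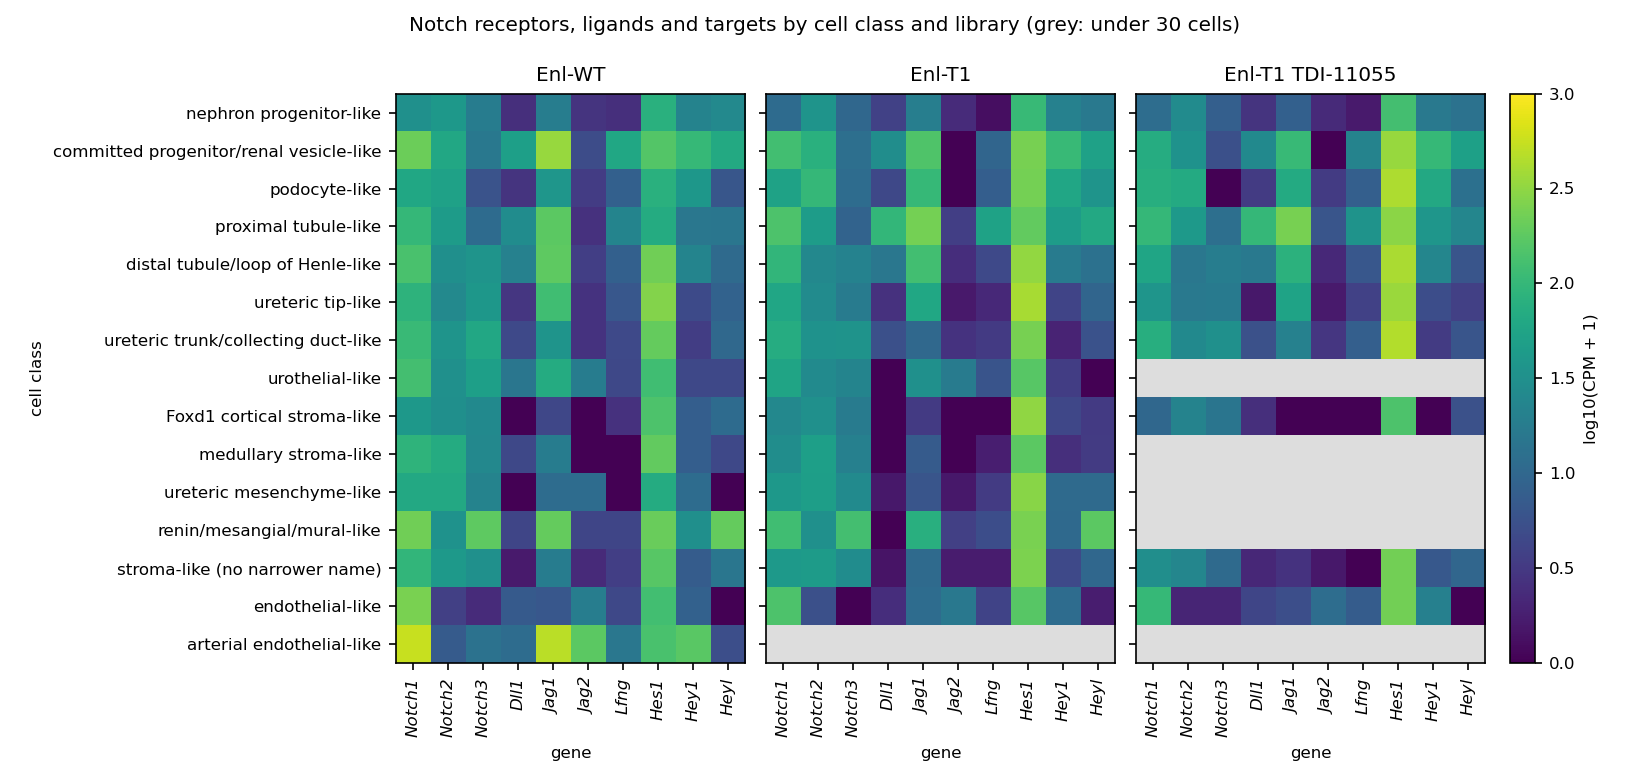
Level of each gene (columns) in each cell class (rows) of each library, as log10(CPM + 1), with classes under 30 cells in grey. *Notch1*, *Jag1*, *Jag2* and *Hey1* were highest in the arterial endothelial-like class of Enl-WT, *Notch3* and *Heyl* in the renin/mesangial/mural-like class, and *Hes1* was at 68.4 CPM or more in every class shown.

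The ligand *Dll1* (ENSMUSG00000014773, chromosome 17, 15367354 to 15376872), a Delta-like ligand of the early nephron, was found mainly in 3 nephron classes. Proximal tubule-like cells had 27.5, 95.1 and 97.4 CPM, renal vesicle-like cells 47.8, 28.4 and 25.5 CPM, and distal tubule/loop of Henle-like cells 19.8, 14.49 and 15.3 CPM. In nephron progenitor-like and podocyte-like cells it stayed between 1.57 and 3.48 CPM, and the trunk, expected to lack it, had 3.54, 4.44 and 4.56 CPM. Both tubule-like and renal vesicle-like cells lay above that background in every library.

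*Jag1* (ENSMUSG00000027276, chromosome 2, 137081456 to 137116644), a Jagged ligand of the nephron and of arteries, reached 484 CPM (423 to 550) in arterial endothelial-like cells of Enl-WT. In the nephron it was at 17.7, 18.2 and 7.39 CPM in progenitor-like cells, at 342, 149 and 105 CPM in renal vesicle-like cells and at 172, 235 and 241 CPM in proximal tubule-like cells. The ureteric tip, the branching end of the collecting system, had 120, 59.9 and 54.1 CPM, and the trunk behind it 34.7, 9.38 and 19.9 CPM. Tip-like cells were above trunk-like cells in all 3 libraries.

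*Jag2* (ENSMUSG00000002799, chromosome 12, 112907819 to 112929776) was highest in arteries. Arterial endothelial-like cells of Enl-WT had 176 CPM (140 to 218), the endothelial-like class 17.8, 14.9 and 10.7 CPM, and urothelial-like cells 17.4 CPM in Enl-WT and 16.7 in Enl-T1. Foxd1 cortical stroma-like cells, expected to lack it, had 0 UMIs in each library, which allows up to 6.27 CPM.

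*Lfng* (ENSMUSG00000029570, chromosome 5, 140607320 to 140615545) encodes Lunatic fringe, an enzyme that adds sugar to Notch receptors and so alters which ligands they respond to. It was at 59.9 CPM (48.1 to 73.7) in renal vesicle-like cells of Enl-WT, against 8.53 CPM (3.13 to 18.6) for Enl-T1 and 21.1 CPM (14.6 to 29.5) with the inhibitor, and at 21.3, 52.9 and 33.5 CPM in proximal tubule-like cells. The Enl-WT library was highest in renal vesicle-like cells and lowest in proximal tubule-like cells. Endothelial-like cells, expected to lack *Lfng*, had 3.42, 2.98 and 6.40 CPM, and elsewhere in the nephron it was at most 7.38 CPM.

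*Lfng* and *Dll1* were the pair of members most like each other over classes and libraries, with an r of 0.87, and the 250 bases before their starts are shown for that reason, from RefSeq on GRCm38.p6. Capitals mark TGGGAA, the core letters that RBPJ binds, and its reverse complement TTCCCA, searched on both strands.
Lfng, chr5:140607091-140607340, plus strand: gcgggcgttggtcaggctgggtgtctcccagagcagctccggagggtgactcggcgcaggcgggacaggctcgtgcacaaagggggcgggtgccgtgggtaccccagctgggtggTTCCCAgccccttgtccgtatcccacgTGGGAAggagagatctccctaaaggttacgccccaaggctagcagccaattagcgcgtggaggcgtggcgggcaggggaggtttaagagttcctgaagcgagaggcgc
Dll1, chr17:15376933-15377182, minus strand: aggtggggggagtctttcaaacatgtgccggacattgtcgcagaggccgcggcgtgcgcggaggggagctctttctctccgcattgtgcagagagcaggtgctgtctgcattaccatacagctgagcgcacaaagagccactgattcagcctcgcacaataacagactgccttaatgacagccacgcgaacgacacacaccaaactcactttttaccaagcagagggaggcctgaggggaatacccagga
The *Lfng* window holds TTCCCA at 135 to 130 bases and TGGGAA at 108 to 103 bases before the start, and the *Dll1* window holds neither. Of 32851 windows of this length, 7094 (21.6%) hold the letters. RefSeq windows matched 7 of the 10 members (all but *Hes1*, *Hey1* and *Heyl*), and among their 8 windows only that of *Lfng* holds a match.

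*Hes1* (ENSMUSG00000022528, chromosome 16, 30064384 to 30067796), a transcriptional repressor and the best known Notch target, was present in every class. In Enl-WT it ran from 68.4 CPM in ureteric mesenchyme-like cells to 278 CPM in ureteric tip-like cells. Nephron progenitor-like cells had 78.8, 103 and 125 CPM, the lowest class of all by its mean over libraries, and renal vesicle-like cells 155, 243 and 346 CPM. Distal tubule/loop of Henle-like cells had 222, 327 and 415 CPM, and in each of these 3 nephron classes the libraries kept the same order.

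*Hey1* (ENSMUSG00000040289, chromosome 3, 8663359 to 8667256), a repressor of the Hey family, had 170 CPM (135 to 211) in arterial endothelial-like cells of Enl-WT and 102, 104 and 100.1 CPM in renal vesicle-like cells. The last 3 values lie within each other's intervals. Nephron progenitor-like cells had 21.1, 19.8 and 15.51 CPM, podocyte-like cells 37.4, 59.2 and 62.9 CPM, and ureteric tip- and trunk-like cells at most 4.17 CPM. Among the named classes *Hey1* was thus highest in arterial endothelial-like cells, measured in 1 library, and then in renal vesicle-like and podocyte-like cells. It was low in the endothelial-like class, at a mean of 12.4 CPM over the libraries, and nearly absent from the ureteric epithelium. The endothelial-like class leaves out the unnamed endothelial cluster led by *Prnd* and *Esm1*, where *Hey1* was at 100.2, 53.1 and 112 CPM.

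*Heyl* (ENSMUSG00000032744, chromosome 4, 123233556 to 123249875), another repressor of the Hey family, had 192 CPM (165 to 222) in renin/mesangial/mural-like cells of Enl-WT and 175 CPM (146 to 208) in Enl-T1. Renal vesicle-like cells had 65.9, 51.2 and 49.7 CPM, and nephron progenitor-like cells 24.8, 15.4 and 12.5 CPM. The trunk, expected to lack it, had 9.22, 4.69 and 5.22 CPM, and endothelial-like cells 0, 1 and 0 UMIs. *Heyl* was, like *Notch3*, highest in mural-like cells, while *Hey1* was at 30.02 CPM there in Enl-WT and 9.51 in Enl-T1.

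All members but *Notch3* and *Jag2* were higher in renal vesicle-like than in nephron progenitor-like cells in each library. In Enl-WT *Notch1* went from 30.8 to 212 CPM, *Dll1* from 1.57 to 47.8, *Jag1* from 17.7 to 342, *Lfng* from 1.57 to 59.9, *Hey1* from 21.1 to 102 and *Heyl* from 24.8 to 65.9. In Enl-T1 the same step took *Notch1* from 10.1 to 122 CPM, *Jag1* from 18.2 to 149 and *Hey1* from 19.8 to 104. In Enl-T1 TDI-11055 it took them from 10.7 to 71.5, from 7.39 to 105 and from 15.51 to 100.1 CPM.

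**Figure D2:**
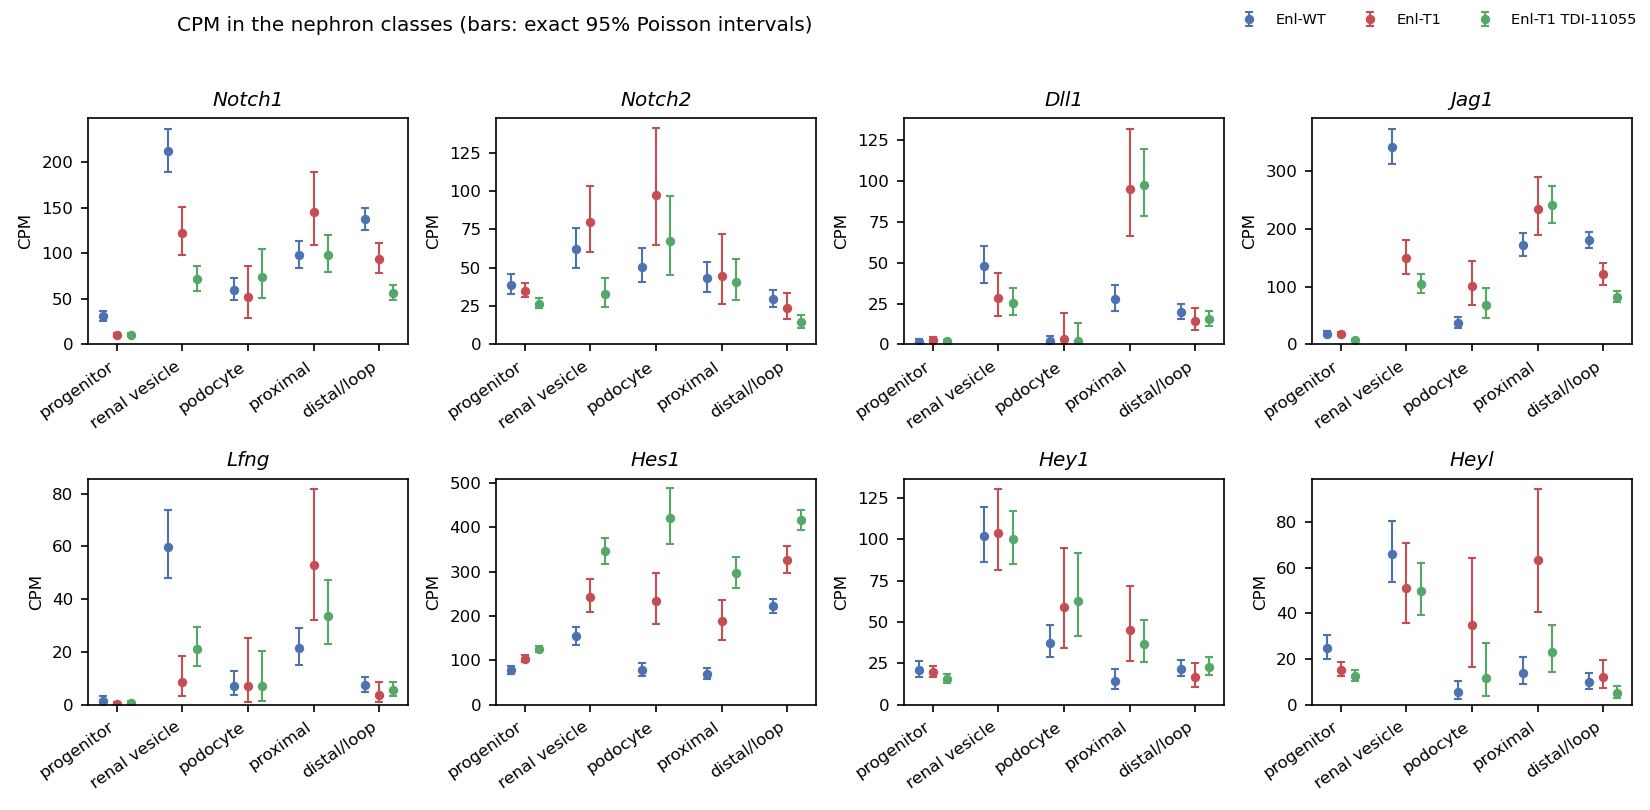
CPM of 8 of the genes in the 5 nephron classes of the 3 libraries, with exact 95% Poisson intervals as bars. The level of *Hes1* had the order Enl-WT, Enl-T1, Enl-T1 TDI-11055, from low to high, in all 5 classes, while *Jag1* and *Lfng* of the renal vesicle-like class were highest in Enl-WT, at 342 and 59.9 CPM.

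The first comparison set Enl-T1 beside Enl-WT. *Hes1* was higher in nearly every class, *Jag1* was lower in renal vesicle-like, mural-like and ureteric cells and higher in proximal tubule-like and podocyte-like cells, *Lfng* was lower in renal vesicle-like cells, and *Notch1* was lower in nephron progenitor-like and stroma-like cells. The median ribosomal protein share of a cell was 26.7% in Enl-T1 and 16.5% in Enl-WT, and the median gene of a class was lower in Enl-T1 (log2 ratio from -0.40 to -0.24 over the 14 classes with at least 30 cells in both libraries). Ratios are therefore relative to the median gene of the class, and a gene was called when it was past 1.4-fold, the size limit in the study's methods, with a mean of at least 5 CPM and at least 20 UMIs. Over gene and class, 87 pairs of a member and a class could be tested, of which 27 were called higher and 21 lower (18 and 34 with no centring, 31 and 14 within 10 bins of exonic length). The background was 43.8% of all gene and class pairs, 22.0% higher and 21.8% lower (49.9% with no centring and 38.4% within bins of exonic length), so calls were frequent among all genes and the count is read against that share.

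*Hes1* was past the fold in 13 of 14 classes, all higher, with a median log2 ratio of 0.82 relative to the median gene. The ratio was 1.96 (1.60 to 2.41) in renal vesicle-like cells, 1.75 (1.56 to 1.96) in distal tubule/loop of Henle-like cells and 1.64 (1.43 to 1.88) in nephron progenitor-like cells. The largest, 5.08 (2.95 to 9.61), came from ureteric mesenchyme-like cells, where Enl-WT had only 13 *Hes1* UMIs and where the markers summed to 2648 CPM in Enl-WT and 636 in Enl-T1. It was higher outside the nephron and stroma too, at 1.78 (1.66 to 1.91) in ureteric tip-like and 1.68 (1.37 to 2.06) in endothelial-like cells. Over the whole endothelial lineage *Hes1* had 1.56 (1.35 to 1.79), and in its unnamed cluster led by *Prnd* and *Esm1* 1.30 (0.972 to 1.75), inside the fold. Among the 14 classes the exception was the medullary stroma-like class at 1.15 (0.855 to 1.57).

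*Hes1* can also be induced by stimuli other than Notch, so 2 lists added after values were seen, 12 immediate early and 6 heat shock genes, are given beside it. Relative to the median gene, the immediate early sum was higher in Enl-T1 in 11 of the 14 classes, *Hes1* being past the fold in 10 of them and in the other 3, with ratios from 0.668 in proximal tubule-like to 2.07 in medullary stroma-like cells. The heat shock sum was higher in 14 of 14 classes, with ratios from 1.06 to 1.93. Uncentred, the sums were higher in 7 and 11 classes. In the inhibitor-exposed library the heat shock sum was higher in 10 of 10 classes against either other library. The immediate early sum was above the median gene in 4 of 10 classes against either and below it in 6. Against Enl-T1 the 4 include nephron progenitor-like cells, which were level at 1.00. The ratios to Enl-T1 ran from 0.430 in stroma-like to 1.76 in podocyte-like cells, with 0.503 in Foxd1 cortical stroma-like cells. The part of these stimuli in the level of *Hes1* was not tested. Within bins of exonic length, a scaling that takes out the relation between ratio and transcript length, the median log2 ratio of *Hes1* was 0.58. Thinned to 2000 UMIs a cell, 13.2% (10.7 to 16.1) of nephron progenitor-like Enl-WT cells had a *Hes1* UMI, as did 18.4% (15.1 to 22.1) of those of Enl-T1 and 19.7% (16.5 to 23.4) of the inhibitor-exposed ones (32.5%, 60.6% and 69.0% unthinned).

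In renal vesicle-like cells the members differed in direction. *Lfng* had a ratio of 0.178 (0.0637 to 0.403), resting on 6 UMIs in 50 cells of Enl-T1, and *Jag1* was at 0.546 (0.438 to 0.675), while *Hes1* was higher as given above and *Notch2* had 1.61 (1.13 to 2.27). *Rbpj*, the DNA-binding partner, had 1.71 (1.28 to 2.28). *Notch1* at 0.722 (0.562 to 0.919), *Dll1* at 0.744 (0.429 to 1.24), *Hey1* at 1.28 (0.953 to 1.70) and *Heyl* at 0.971 (0.643 to 1.44) stayed inside the fold. In the thinned cells a *Jag1* UMI was found in 49.2% (42.1 to 56.4) of renal vesicle-like cells of Enl-WT and in 26.0% (14.6 to 40.3) of those of Enl-T1 (85.5% and 78.0% unthinned).

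Proximal tubule-like cells showed another pattern, with 7 of 9 testable members called higher in Enl-T1 and none lower. *Heyl* had a ratio of 5.96 (3.26 to 10.9), *Dll1* 4.56 (2.88 to 7.16), *Hey1* 4.06 (2.07 to 7.77), *Hes1* 3.56 (2.62 to 4.80) and *Lfng* 3.27 (1.80 to 5.76). *Notch1* and *Jag1* had 1.95 (1.41 to 2.66) and 1.80 (1.41 to 2.29). These rest on 32 Enl-T1 cells whose proximal tubule markers summed to 566 CPM against 6813 in Enl-WT, while *Wnt4*, *Lhx1*, *Pax8* and *Fgf8*, genes of nephron commitment listed after values were seen, summed to 303 CPM in Enl-WT, 936 in Enl-T1 and 653 with the inhibitor. The part of such earlier cells or RNA in the ratios was not tested, and the background of this class was 56.7%, with 27.2% higher. Podocyte-like cells, with 38 Enl-T1 cells, marker sums of 1236 against 44030 CPM and sums of the same commitment genes of 759 against 180 CPM (748 with the inhibitor), had *Hes1* at 3.72 (2.73 to 5.04), *Jag1* at 3.49 (2.16 to 5.52), *Notch2* at 2.41 (1.51 to 3.73) and *Hey1* at 1.98 (1.09 to 3.43), beside a background of 61.6%, with 30.6% higher.

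In the ureteric epithelium *Jag1* had a ratio of 0.328 (0.219 to 0.481) in trunk-like and 0.610 (0.528 to 0.702) in tip-like cells, and *Notch3* 0.657 (0.522 to 0.827) and 0.535 (0.406 to 0.698). *Jag1* was also lower in mural-like cells, at 0.473 (0.345 to 0.642), where *Notch3* and *Heyl* were inside the fold at 0.847 (0.650 to 1.10) and 1.11 (0.882 to 1.41), and where the mural markers summed to 6960 CPM in Enl-WT and 3806 in Enl-T1. In endothelial-like cells *Notch1* had 0.699 (0.584 to 0.835) and *Jag2* was inside the fold at 1.02 (0.540 to 1.90). *Jag1*, at 2.32 (0.908 to 6.38) on 8 and 14 UMIs, and *Hey1*, at 1.69 (0.712 to 4.11) on 11 and 14 UMIs, were past it upwards there with intervals that include 1. Over the whole endothelial lineage, arterial and unnamed clusters included, these genes were lower instead. *Jag1* had 0.441 (0.354 to 0.548), *Hey1* 0.620 (0.474 to 0.807) and *Jag2* 0.522 (0.395 to 0.685). Arterial endothelial-like cells numbered 47 in Enl-WT and 10 in Enl-T1, and their part in these ratios was not tested.

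*Notch1* was called lower in 6 of 14 classes, with 0.410 (0.299 to 0.557) in nephron progenitor-like cells as its lowest ratio and 0.539 (0.431 to 0.675) in stroma-like cells, and its median log2 ratio of -0.46 came to -0.06 within bins of exonic length, its exonic length being 14232 bases and longer genes having lower ratios in every class. *Notch2* was called higher in 2 of 13 classes and lower in 0. Its median log2 ratio of 0.20 came to 0.57 within bins of exonic length, where it lay above its bin in 13 of 13 classes. The nephron progenitor-like class joined 3 clusters, led by *Rspo3* and *Cited1* (the most Enl-WT cells, 318 of 647), by the DNA replication genes *Rrm2* and *Ccne2* (the most Enl-T1 cells, 209 of 500) and by the mitosis genes *Ube2c* and *Nusap1*. *Notch1* had 0.645 (0.368 to 1.10), 0.292 (0.160 to 0.518) and 0.393 (0.230 to 0.661) in them, and *Hes1* 2.29 (1.79 to 2.93), 1.20 (0.958 to 1.51) and 1.74 (1.36 to 2.24). In the stroma-like class, *Notch1* had 0.557 (0.395 to 0.789) in the cluster with the most Enl-WT cells (141 of 305, led by *Hist1h2ae* and *Rrm2*) and 0.580 (0.360 to 0.959) in that with the most Enl-T1 cells (204 of 489, led by *Lox* and *Clca3a1*).

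**Figure D3:**
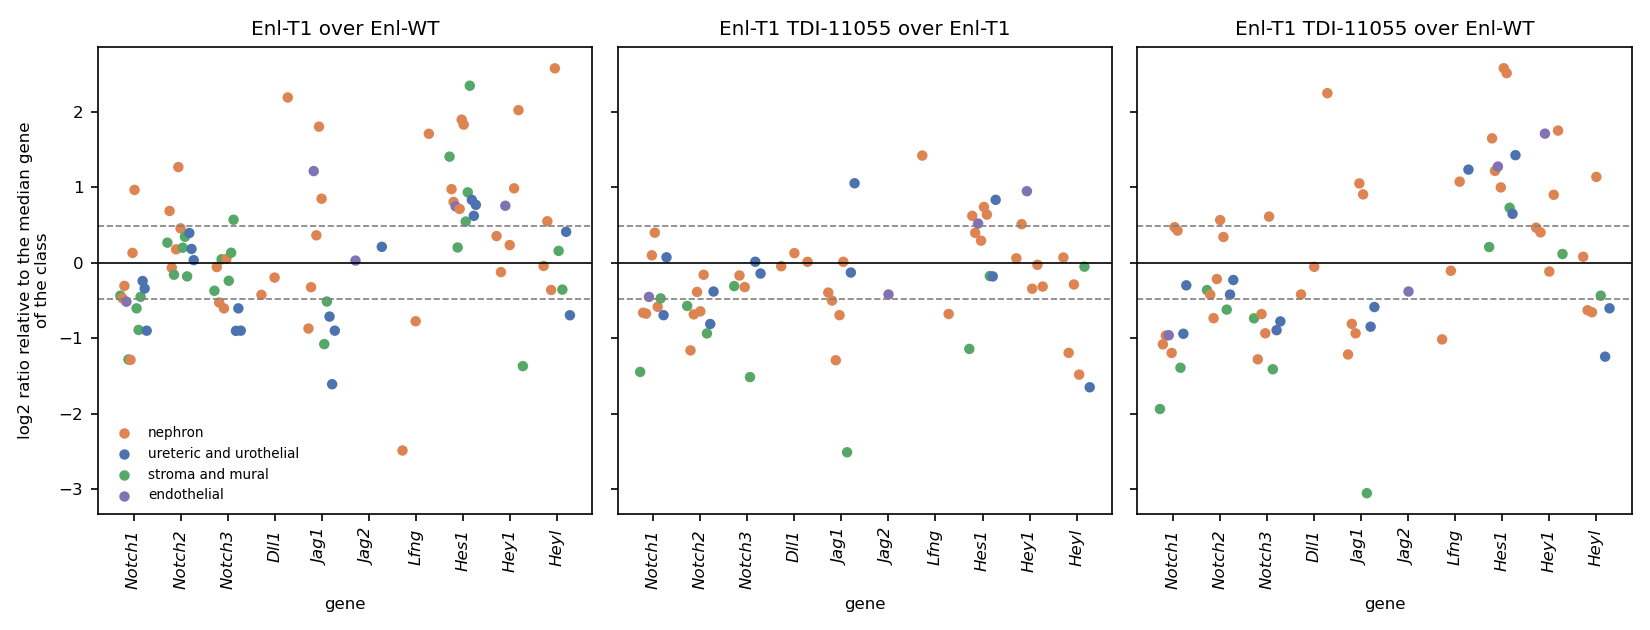
Each point is the log2 ratio of a gene in a class relative to the median gene of that class, for the 3 pairs of libraries, with the 1.4-fold limit dashed. *Hes1* lay above the median gene in 14 of 14 classes when Enl-T1 was set over Enl-WT, and in 7 of 10 and 10 of 10 when Enl-T1 TDI-11055 was set over Enl-T1 or Enl-WT.

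The second comparison asked how the inhibitor-exposed library differed from Enl-T1, a library that it shares with the first. *Notch1* and *Notch2* were lower in some classes and higher in none, *Hes1* was higher in 5 of 10 classes, and *Jag1* and *Lfng* went both ways. Of 61 pairs in 10 classes, 9 were called higher and 21 lower, beside a background of 33.5% (15.7% higher and 17.8% lower). Within bins of exonic length 5 were higher and 13 lower, beside 29.2%. *Notch1* was called lower in 5 of 10 classes, *Notch2* in 6 of 9 and *Notch3* in 1 of 6, and none was called higher. Without cells under 1.5% mitochondrial UMIs these were 3 of 9, 3 of 8 and 1 of 6. *Hes1* was then called higher in 4 of 9 classes in place of 5 of 10, and *Jag1* lower in 2 of 7 in place of 4 of 8. Within bins of exonic length the median log2 ratio of *Notch1* was -0.0019 in place of -0.53, and that of *Notch2* was -0.37 in place of -0.64. *Hes1* was higher in 5 classes, with 1.78 (1.64 to 1.94) in trunk-like, 1.43 (1.18 to 1.74) in endothelial-like and 1.54 (1.29 to 1.84) in renal vesicle-like cells, and lower in Foxd1 cortical stroma-like cells at 0.453 (0.356 to 0.572), where it came to 146 CPM beside 143 in Enl-WT and 318 in Enl-T1.

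In trunk-like cells *Jag1* had 2.07 (1.36 to 3.20), and in nephron progenitor-like cells 0.408 (0.2995 to 0.553). *Heyl* was lower in ureteric tip-like cells at 0.319 (0.190 to 0.528) and in proximal tubule-like cells at 0.358 (0.191 to 0.666), and *Hey1* was higher in endothelial-like cells at 1.93 (0.906 to 4.19), on 14 and 18 UMIs. In tip-like cells *Heyl* lay between 2.66 and 8.45 CPM over the libraries. The trunk, expected to lack it, had 4.69 to 9.22 CPM, so the tip-like ratio is one of values near background. *Dll1* was inside the fold in all 3 classes where it could be tested, with 1.01 (0.679 to 1.53) in proximal tubule-like cells.

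Of the 186 renal vesicle-like cells of the Enl-T1 TDI-11055 library, 149 had a mitochondrial share under 1.5%. In these *Notch1* was at 22.5 CPM and *Jag1* at 34.4 CPM, and in the other 37 cells at 125 and 183 CPM. *Lfng* was at 13.05 and 30.03 CPM, *Dll1* at 13.05 and 39.2, and *Hes1* at 216 and 490. Every member plotted was lower in the cells of low mitochondrial share. In thinned cells a *Jag1* UMI was found in 10.3% (6.30 to 15.6) of the renal vesicle-like cells of this library (28.5% unthinned). Over all cells the ratio to Enl-T1 was 0.631 (0.473 to 0.845) for *Notch1*, 0.447 (0.301 to 0.663) for *Notch2* and 2.68 (1.11 to 7.80) for *Lfng*. Without cells under 1.5% in either library these came to 0.998 (0.738 to 1.35), 0.639 (0.415 to 0.975) and 3.43 (1.36 to 10.3), so that *Notch1* was no longer called. Within bins of exonic length, over all cells, *Notch1* had a log2 ratio of 0.14 to Enl-T1. *Dll1* went from 0.968 (0.554 to 1.74) to 1.34 (0.737 to 2.49) and *Jag1* from 0.760 (0.592 to 0.979) to 1.19 (0.919 to 1.55) when the cells of low mitochondrial share were left out.

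**Figure D4:**
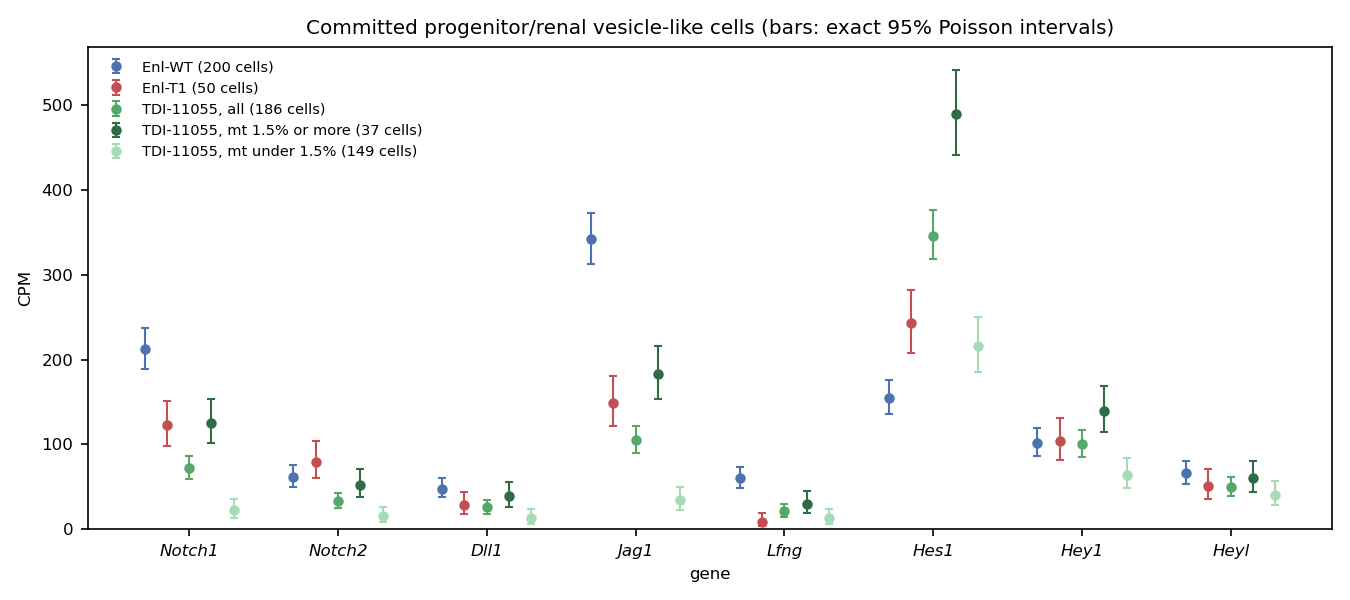
CPM of 8 genes in committed progenitor/renal vesicle-like cells, with exact 95% Poisson intervals, for the 3 libraries and for the Enl-T1 TDI-11055 cells with a mitochondrial share under 1.5% (149 cells) or at least 1.5% (37 cells). *Notch1* was at 22.5 CPM in the former and 125 CPM in the latter, beside 212 in Enl-WT and 122 in Enl-T1.

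The third comparison set the inhibitor-exposed library beside Enl-WT. Of 67 pairs in 10 classes, 20 were called higher and 27 lower (15 and 35 with no centring, 23 and 16 within bins of exonic length), beside a background of 53.0%, of which 25.6% higher and 27.3% lower (53.6% with no centring and 39.2% within bins of exonic length). *Hes1* was higher in 9 of 10 classes, with 3.13 (2.68 to 3.67) in renal vesicle-like, 5.71 (4.60 to 7.10) in proximal tubule-like and 5.97 (4.74 to 7.53) in podocyte-like cells, and the Foxd1 cortical stroma-like class had 1.15 (0.853 to 1.57). The podocyte-like ratio rests on 30 inhibitor-exposed cells with marker sums of 12818 against 44030 CPM and commitment gene sums of 748 against 180 CPM. The part of unlike cell make-up in these ratios was not tested. *Dll1* in proximal tubule-like cells had 4.74 (3.32 to 6.85), where the markers summed to 1015 CPM against 6813. In renal vesicle-like cells *Jag1* had 0.431 (0.360 to 0.513) and *Lfng* 0.494 (0.323 to 0.742), and without the cells of low mitochondrial share 0.662 (0.545 to 0.8003) and 0.616 (0.372 to 0.984). *Notch1* was called lower in 7 of 10 classes and *Notch3* in 7 of 8, with *Notch3* at 1.53 (0.652 to 3.42) in proximal tubule-like cells. Within bins of exonic length the median log2 ratio of *Notch1* was -0.24 in place of -0.96, that of *Notch3* -0.48 in place of -0.84 and that of *Hes1* 0.76 in place of 1.25. That of *Notch2* turned, at 0.36 in place of -0.36.

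The wider list of 42 Notch genes held the proteases, fucose and sugar transferases, ubiquitin ligases, co-activators and further ligands and targets. Of its gene and class pairs, 64 of 389 were called higher and 101 lower in the first comparison, 27 and 59 of 262 in the second, and 40 and 107 of 286 in the third. The shares past the fold in either direction, 42.4%, 32.8% and 51.4%, lay near the backgrounds of 43.8%, 33.5% and 53.0%. The shares lower were 26.0%, 22.5% and 37.4%, above the 21.8%, 17.8% and 27.3% over all genes. The shares higher were 16.5%, 10.3% and 14.0%, below the 22.0%, 15.7% and 25.6% over all genes. The median log2 ratios of the list were -0.10, -0.16 and -0.21, and -0.011, -0.10 and -0.11 within bins of exonic length. *Spen*, which encodes a corepressor of RBPJ, was lower in Enl-T1 in nephron progenitor-like cells at 0.483 (0.420 to 0.555), in trunk-like cells at 0.459 (0.397 to 0.529) and in distal tubule/loop of Henle-like cells at 0.383 (0.298 to 0.486). *Psenen*, a subunit of gamma-secretase, was higher at 1.52 (1.34 to 1.73) in trunk-like and 1.48 (1.32 to 1.66) in tip-like cells. The exonic length of *Spen* is 14089 bases and that of *Psenen* 1275 bases, and longer genes had lower ratios in every class. The part of length in the ratios of *Spen* and *Psenen* was not tested. *Rbpj* was higher in podocyte-like cells too, at 2.58 (1.75 to 3.73).

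*Nrarp*, a Notch target that feeds back on the pathway, had 3.88 (2.10 to 6.998) in proximal tubule-like cells, the class where *Heyl*, *Hey1* and *Hes1* were also higher. *Hes5*, another target, had 2.73 (1.28 to 5.73) in distal tubule/loop of Henle-like cells on 15 and 18 UMIs. *Dlk1*, a ligand-like protein without the Notch-binding domain of the Delta family, was lower in Foxd1 cortical stroma-like cells at 0.213 (0.155 to 0.289) and higher in mural-like cells at 3.75 (2.47 to 5.81). In Enl-T1 TDI-11055 the Foxd1 cortical stroma-like value of *Dlk1* was 162 CPM, against 59.6 in Enl-T1 and 333 in Enl-WT.

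Over 39 points of class and library and 11240 genes, the genes with the profile most like each member were found by Pearson's r of log2(CPM + 10), as a description, since points of a library share its depth. *Dll1* was most like *Fam167a* (0.92), *Car4* (0.90) and *Lfng* (0.87), *Jag2* was most like *Alox12* (0.94) and *Depp1* (0.90), and *Notch1* was most like *Nrarp* (0.79). *Hey1* was most like *Oxtr* (0.82), *Heyl* like *Cox4i2* (0.80), *Notch3* like *Grk3* (0.83), *Notch2* like *Ptprs* (0.87) and *Jag1* like *AW011738* (0.78) and *Lhx1* (0.78), a marker of the renal vesicle-like class. *Hes1* had the weakest partner, *Med7*, at 0.67.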

How the data were processed

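The deposited matrices hold raw counts of UMIs per gene and barcode, which the authors made with Cell Ranger 6.1.2 on mm10 (names and versions from the submitters' processing notes), for barcodes called as cells. No columns of other samples were present. Here barcodes with 1000 to 6000 genes and at most 10% mitochondrial UMIs were kept. Libraries held 7186, 6575 and 6453 barcodes and 37221435, 63336586 and 76619303 UMIs (in the order Enl-WT, Enl-T1, Enl-T1 TDI-11055). Doublets were left in. As an alternative, Scrublet (scanpy 1.11.5) removed 123 and 41 cells, and, because it marked 0.0726% in Enl-T1 TDI-11055, the 61 cells with the highest scores there.

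Libraries were integrated and clustered in Seurat 5.3.0 (R 4.3.3) on 2000 variable genes without the 10 members, 42 wider Notch genes, Hox, electron transport chain and technical genes (30 principal components and resolution 0.5 for all cells, then each lineage alone). A cluster was named by the type with the most markers among its 10 top genes, then by the highest mean fold, with at least 3 markers detected. Stroma and endothelial clusters in which no narrower type led took the broad names stroma-like and endothelial-like, with no condition on fold. The endothelial-like clusters had mean log2 folds of -0.10, -0.29 and -1.69 for endothelial markers, relative to the rest of the lineage. This scoring was set after clusters were seen, and names may differ from the study's.

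UMIs were summed by class and library and scaled to CPM, with exact Poisson intervals. Ratios of 2 libraries have exact intervals from the split of the counts, shares have Clopper-Pearson intervals, and counts of 0 enter ratios at a floor of 3. Ratios are centred on the median gene of the class and called past 1.4-fold, for classes with at least 30 cells in both libraries. UMIs are molecules, and all intervals cover counting error only. Named genes are every member, up to 3 wider Notch genes higher and lower per class with an interval that excludes 1, and the 3 genes most like each member, of which not all are printed. The members and lists were chosen with earlier results of these data known. Gene positions and exonic lengths are from GENCODE M21 (GRCm38), and start sites from RefSeq. Alternatives were other centring, other cell filters, no minimum on low genes, equal weight of cells, clustering with Notch genes, Y-linked cells alone and a 2-fold limit, and, added after the data were seen, cells with at least 1.5% mitochondrial UMIs and the clustering repeated with another kernel of the linear algebra library.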

Additional observations from a re-analysis of the deposited data

How the results depend on the processing

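No paired analysis was possible because each group was 1 library. The count of members past the fold in the comparison of Enl-T1 with Enl-WT (48 of 87 testable pairs) came to 73 of 124 with no minimum on low genes. It was 13 of 27 in Y-linked cells alone and 17 of 87 at a 2-fold limit (background 14.4%). In the comparison of Enl-T1 TDI-11055 with Enl-T1 (30 of 61) it came to 48 of 89, 8 of 21 and 11 of 61 (background 8.63%) under the same settings. Within bins of exonic length it came to 18 of 61. In that of Enl-T1 TDI-11055 with Enl-WT (47 of 67) it came to 27 of 38 in Y-linked cells and 23 of 67 (background 17.6%) at the 2-fold limit. Without cells under 1.5% mitochondrial UMIs the counts were 48 of 87, 22 of 57 and 43 of 62, and with another rounding in the clustering 48 of 88, 31 of 63 and 45 of 67. Where no background is printed, the share over all genes under that setting is not given, and the count is not read as a result. Unthinned, the share of renal vesicle-like cells with a *Jag1* UMI was 85.5%, 78.0% and 28.5% in place of 49.2%, 26.0% and 10.3%. Log2 ratios turned for *Notch1* in renal vesicle-like cells within bins of exonic length (0.14 to Enl-T1 and 0.019 to Enl-WT) and for *Notch2* in stroma-like cells (0.16 to Enl-WT). They also turned for *Jag1* in stroma-like cells clustered with Notch genes (0.043), *Notch3* in proximal tubule-like cells with equal weight of cells (-0.31), *Hey1* in endothelial-like cells with no upper limit on genes (-0.059) and *Heyl* in trunk-like cells with Y-linked cells alone (0.19). The causes were not tested. The class with the highest level was the same for 10 of 10 members under the alternatives run. With 1 library a group, differences between embryos, preparations and sexes cannot be told apart from those between groups.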

Other observations

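Unnamed clusters carried Notch genes as well, and values below follow the order Enl-WT, Enl-T1, Enl-T1 TDI-11055. In the nephron cluster led by *Sst* and *Akap12*, with 42, 228 and 12 cells, *Jag1* was at 140.1 CPM (98.6 to 193), 16.6 CPM (11.4 to 23.4) and 77.3 CPM (42.2 to 129.6), and *Notch1* at 71.9, 16.1 and 71.7 CPM. Both were lowest in Enl-T1. In the endothelial cluster led by *Prnd* and *Esm1*, with 111, 86 and 33 cells, *Notch1* was at 441 CPM (390.3 to 496), 226 CPM (196 to 258) and 217 CPM (175 to 266). *Jag1* was at 82.7, 29.3 and 32.7 CPM there, *Jag2* at 81.1, 34.7 and 25.7 CPM and *Hey1* at 100.2, 53.1 and 112 CPM. The receptor and both ligands were thus highest in Enl-WT. The 10 leading genes of this cluster also held *Calb1*, *Epcam*, *Cldn7*, *Krt18* and *Krt8*. It was left unnamed because more markers of the ureteric trunk/collecting duct-like class than of endothelium were among them. The part of ureteric cells or RNA in its values was not tested.

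In the stroma cluster led by *Npy* and *Egfl6*, *Hes1* was at 71.0 CPM (32.5 to 134.8) in 36 cells, 364 CPM (319.8 to 413) in 97 cells and 165 CPM (115 to 231) in 21 cells, and *Notch1* had 1, 19 and 2 UMIs there. In the stroma cluster led by *Gap43* and *Nrxn3*, *Hes1* was at 237, 399 and 397 CPM in 54, 153 and 17 cells. In the nephron cluster led by *Hist1h2bc* and *Snap91*, with 204, 274 and 198 cells, the *Hes1* level was 84.8, 89.5 and 124 CPM and that of *Notch1* 30.7, 9.11 and 6.51 CPM.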
